A study of Homo sapiens with 12 samples.

Results

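The 4 libraries numbered 1 were compared with the 8 libraries numbered 2 or 3 in a series of 12 RNA-seq libraries from MV4-11, a human acute myeloid leukemia line whose growth depends on an internal tandem duplication of the receptor kinase FLT3. The members were the libraries whose label ends in 1, and there is 1 such library in each of the 4 treatments: DMSO as vehicle, Mitoxantrone at 20 nM, Gilteritinib at 25 nM, and Drug-combination with mitoxantrone at 20 nM and gilteritinib at 20 nM. All cells were labelled wild-type and were treated for 24 h, and the study's methods describe the mitoxantrone as a liposome where the labels say Mitoxantrone. What a number stands for is not given in the sources used here, so a separate culture, extraction, library preparation and sequencing run cannot be told apart, and p-values measure only the spread between these libraries. The value of each gene is FPKM, its fragment count divided by its length and by the library's mapped fragments, and the shift of a gene is the difference of log2(FPKM + 1) between replicate 1 and replicates 2 and 3 of the same treatment, averaged over the 4 treatments.

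FLT3 with the tandem duplication signals without its ligand through STAT5, RAS and ERK, and PI3K and AKT. STAT5 raises PIM kinases and the CISH and SOCS feedback genes, ERK raises immediate early genes such as EGR1, and gilteritinib inhibits the receptor. Mitoxantrone poisons topoisomerase II, which leads to DNA breaks and to p53, the transcription factor that raises CDKN1A and MDM2. ATF4 is a transcription factor that is translated when amino acids are short or the endoplasmic reticulum is stressed, and it raises amino acid synthesis enzymes, transporters and aminoacyl-tRNA synthetases.

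The depth recovered from the FPKM steps was 35180991 to 41330659 fragments in replicate 1 and 31725021 to 39966549 in the others. Replicate 1 detected more genes, with 34096 to 35060 genes above 0 against 32494 to 33768. All 9 markers of MV4-11 had an FPKM of at least 1 in some library, and their summed FPKM was 1060 to 1756 in replicate 1 and 896 to 977 in the others. LYZ made up most of each sum, and the other 8 markers summed to 374 to 422 in replicate 1 and 370.5 to 444 in the others. No marker on the erythroid, T cell, epithelial and fibroblast lists reached an FPKM of 1 in any library, and their summed FPKM stayed between 0 and 0.509 in both classes. Those of B cells summed to 2.24 to 3.48 in replicate 1 and 1.83 to 2.54 in the others, and those of NK cells to 8.45 to 13.2 and 8.81 to 12.3, with 1 marker of each above an FPKM of 1. Over protein-coding genes with 100 to 1000 fragments, the squared difference between replicate 1 and another library of its treatment was 12.8 to 18.4 times what counting error gives. Replicates 2 and 3 of a treatment differed by 2.51 to 4.87 times counting error, so they were kept as separate libraries.

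Replicate 1 differed from replicates 2 and 3 in 7355 of 18574 genes tested (39.6%), with 4991 higher (26.9%) and 2364 lower (12.7%), by limma at an adjusted p under 0.05. The difference was at least 1 on the log2 scale in 243 genes, of which 189 were higher and 54 lower. Its direction depended on how libraries were scaled to each other. The median gene was higher by 0.09 in FPKM as deposited, and after median-ratio scaling the counts were 2865 higher and 3954 lower, after quantile normalization 2955 and 3666, and after centring by GC content, a setting added after seeing the data, 3030 and 3484. No gene called under median-ratio scaling or quantile normalization had the opposite call in FPKM as deposited, and 2 did after GC centring. The replicate 1 library lay above both others in all 4 treatments for 4094 genes (22.0%) and below both for 1970 (10.6%). Replicates 2 and 3 were set against each other, 4 libraries against 4, with treatment and the class of replicate 1 as terms. For this comparison limma called 0 of 18574 genes (0.0%), with 826 at an unadjusted p under 0.05. The spread in this fit includes differences of the replicate 1 shift between treatments, so differences between replicates 2 and 3 can be missed. In bulk RNA a change in the RNA per cell and a change in the make-up of the cells cannot be told apart.

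**Figure D1:**
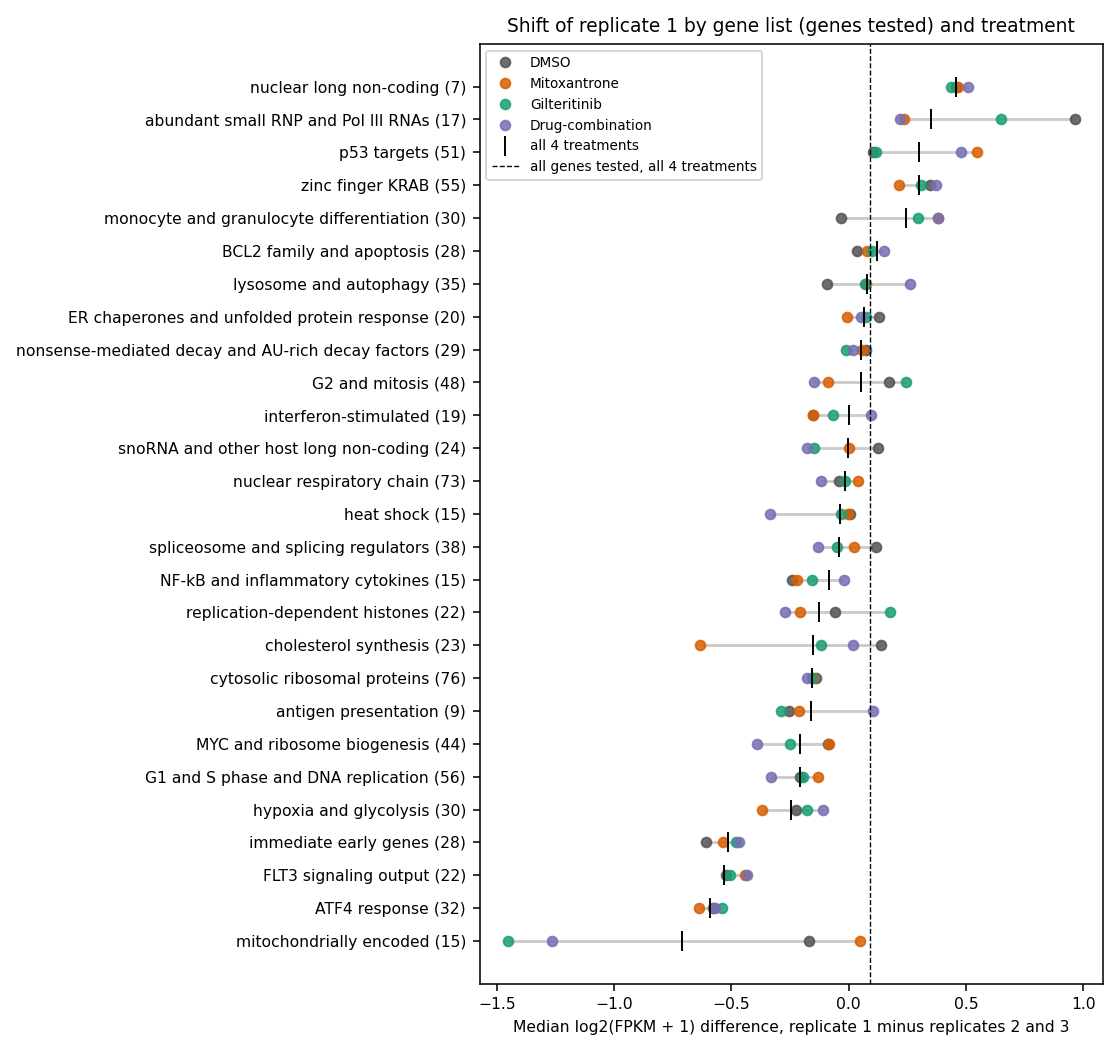
Median difference of log2(FPKM + 1) between replicate 1 and replicates 2 and 3 for 27 gene lists, as coloured points within each of the 4 treatments and a black tick for all 4 together; the dashed line is the median of all genes tested, 0.09. The ATF4 response lies between -0.64 and -0.54 in all 4 treatments, while the mitochondrially encoded genes lie at -1.45 and -1.26 with gilteritinib and at -0.17 and 0.05 without it.

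The ATF4 response was the list with the largest share of falling genes. Of 32 genes tested, 0 rose, 27 fell and 5 did not pass the test, and the median was -0.59 beside 0.09 over all genes. The median was alike in the treatments, at -0.58 in DMSO, -0.64 in Mitoxantrone, -0.54 in Gilteritinib and -0.57 in Drug-combination. Single members were not always alike. In contrasts described below, whose counts were not stable, 5 had a higher and 0 a lower shift with gilteritinib than without it. With mitoxantrone 1 had a higher and 3 a lower shift. PSAT1 (ENSG00000135069, chr9:78297143-78330093 in GENCODE 29 on GRCh38, the source of positions below), an enzyme of serine synthesis, had an FPKM in replicates 1, 2 and 3 of 53.8, 132 and 125 in DMSO, 39.1, 109 and 116 in Mitoxantrone, 51.8, 111 and 114 in Gilteritinib and 37.3, 100.2 and 110.4 in Drug-combination. The 4 replicate 1 libraries were thus all below the 8 others, and the shift was -1.33 (SE 0.06, adjusted p = 3.45e-06). SLC7A5 (ENSG00000103257, chr16:87830023-87869488), a leucine transporter, measured 50.2, 103 and 104 in DMSO, 51.8, 107 and 111 in Mitoxantrone, 41.7, 96.5 and 99.9 in Gilteritinib and 35.5, 91.97 and 93.9 in Drug-combination. Replicate 1 was at most 51.8 and no other library was under 92.0, with a shift of -1.17 (SE 0.05, adjusted p = 3.45e-06). AARS, the alanyl-tRNA synthetase, was at 20.3 ± 2.098 (SD, n = 4) against 41.3 ± 2.38 (SD, n = 8), a shift of -0.99 (SE 0.04, adjusted p = 3.45e-06). The stress kinase-like gene TRIB3 shifted by -1.72 (SE 0.19, adjusted p = 2.09e-04), and by -2.71 within Mitoxantrone.

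Other members of the ATF4 list were named after their values were seen. CHAC1, PHGDH and ATF4 itself passed the test. ATF4 fell by 0.95 on the log2 scale, from 149 to 77.2 FPKM. PHGDH, which opens serine synthesis, fell by 1.42, with shifts of -1.18 in DMSO, -1.77 in Mitoxantrone, -0.93 in Gilteritinib and -1.81 in Drug-combination. CHAC1, which degrades glutathione, fell by 1.61. ASNS, the asparagine synthetase, had a difference of 0.01 and SLC7A11, the cystine transporter, of 0.14, and neither passed the test. Promoters were read from a RefSeq table (GRCh38.p14), which held 19 of the 32 genes. The ATF4-type motif TGATGNAA, on either strand of the 250 bases before the start, was present in 5 of these 19 and in 3.15% of all 34943 promoters. That of CHAC1, on the plus strand at chr15:40953221-40953470, is shown because it is the member with the second largest fall on the list, with the motif in capitals on its minus strand.
CHAC1: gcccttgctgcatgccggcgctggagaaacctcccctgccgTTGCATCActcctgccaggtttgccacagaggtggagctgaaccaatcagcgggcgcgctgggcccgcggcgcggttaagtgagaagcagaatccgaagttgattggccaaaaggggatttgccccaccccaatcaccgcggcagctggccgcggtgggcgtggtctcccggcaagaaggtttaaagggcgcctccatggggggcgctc

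Genes that FLT3, STAT5 and ERK are known to raise fell as well. Of 22 genes on the FLT3 output list, 0 rose, 16 fell and 6 did not pass the test, with a median of -0.53. Of 28 immediate early genes, 1 rose, 21 fell and 6 did not pass the test, with a median of -0.51, and 4 genes are on both lists. PIM1 (ENSG00000137193, chr6:37170203-37175426), a serine kinase that STAT5 induces, had an FPKM of 18.5, 58.9 and 60.005 in DMSO, 27.7, 94.96 and 101 in Mitoxantrone, 7.75, 63.1 and 66.2 in Gilteritinib and 9.19, 56.8 and 56.4 in Drug-combination. All 4 replicate 1 libraries were below the 8 others, and the 2 that received gilteritinib were the lowest of all. The shift of PIM1 was -2.20 (SE 0.17, adjusted p = 4.15e-05), and that of PIM2 was -0.81 (SE 0.04, adjusted p = 3.45e-06). EGR1 (ENSG00000120738, chr5:138465490-138469315), a zinc finger factor induced by ERK, measured 10.4, 30.6 and 33.03 in DMSO, 11.2, 54.2 and 51.5 in Mitoxantrone, 4.29, 26.04 and 26.3 in Gilteritinib and 4.304, 23.9 and 23.2 in Drug-combination. Its replicate 1 values also split by gilteritinib, at 4.29 and 4.30 with it and 10.4 and 11.2 without it, and its shift was -2.06 (SE 0.11, adjusted p = 4.99e-06).

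EGR3 was nearly absent from replicate 1, with an FPKM of 0.203, 3.1001 and 3.06 in DMSO, 0.258, 18.4 and 16.6 in Mitoxantrone, 0.0804, 2.47 and 2.61 in Gilteritinib and 0.0882, 2.73 and 3.15 in Drug-combination. Replicate 1 was at most 0.258 in any treatment, and the Mitoxantrone libraries of the other class were the highest. FOS, a subunit of AP-1, was at 23.9 ± 5.39 (SD, n = 4) against 35.4 ± 7.17 (SD, n = 8), a shift of -0.55 (SE 0.04, adjusted p = 2.72e-05). ZFP36, which promotes decay of AU-rich mRNAs, shifted by -1.15 (SE 0.10, adjusted p = 6.61e-05). FLT3 itself was at 148 ± 16.9 (SD, n = 4) against 163 ± 6.71 (SD, n = 8), a difference of -0.14 (SE 0.07, adjusted p = 0.129) that did not pass the test. FLT3 passed it after median-ratio scaling (-0.26, adjusted p = 0.026), after GC centring (-0.24, adjusted p = 0.0263) and without Drug-combination replicate 1 (-0.22, adjusted p = 0.0266). PIM3, SOCS1 and STAT5A were at -0.11, 0.03 and 0.11 without passing it. IER5 was the only immediate early gene tested that rose, by 0.38. The promoters of EGR1 on the plus strand at chr5:138465229-138465478 and of CISH on the minus strand at chr3:50611775-50612024 are shown as members of these lists that fell, CISH by 0.72. Capitals mark the letters of the CArG box, which SRF binds, in EGR1 (2 of 19 immediate early promoters and 1.16% of all hold it) and the STAT motif TTCNNNGAA in CISH (2 of 15 FLT3 output promoters and 6.56% of all).
EGR1: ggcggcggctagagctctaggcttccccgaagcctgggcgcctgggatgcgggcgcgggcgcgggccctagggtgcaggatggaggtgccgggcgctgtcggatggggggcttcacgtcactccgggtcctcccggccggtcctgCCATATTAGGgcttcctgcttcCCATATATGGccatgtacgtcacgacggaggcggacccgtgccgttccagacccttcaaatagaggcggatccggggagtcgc
CISH: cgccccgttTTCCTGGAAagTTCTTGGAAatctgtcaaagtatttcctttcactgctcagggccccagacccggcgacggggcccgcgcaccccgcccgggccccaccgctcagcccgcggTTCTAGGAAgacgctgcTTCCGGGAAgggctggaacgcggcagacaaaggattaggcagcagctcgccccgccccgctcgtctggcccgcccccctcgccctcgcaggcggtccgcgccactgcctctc

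**Figure D2:**
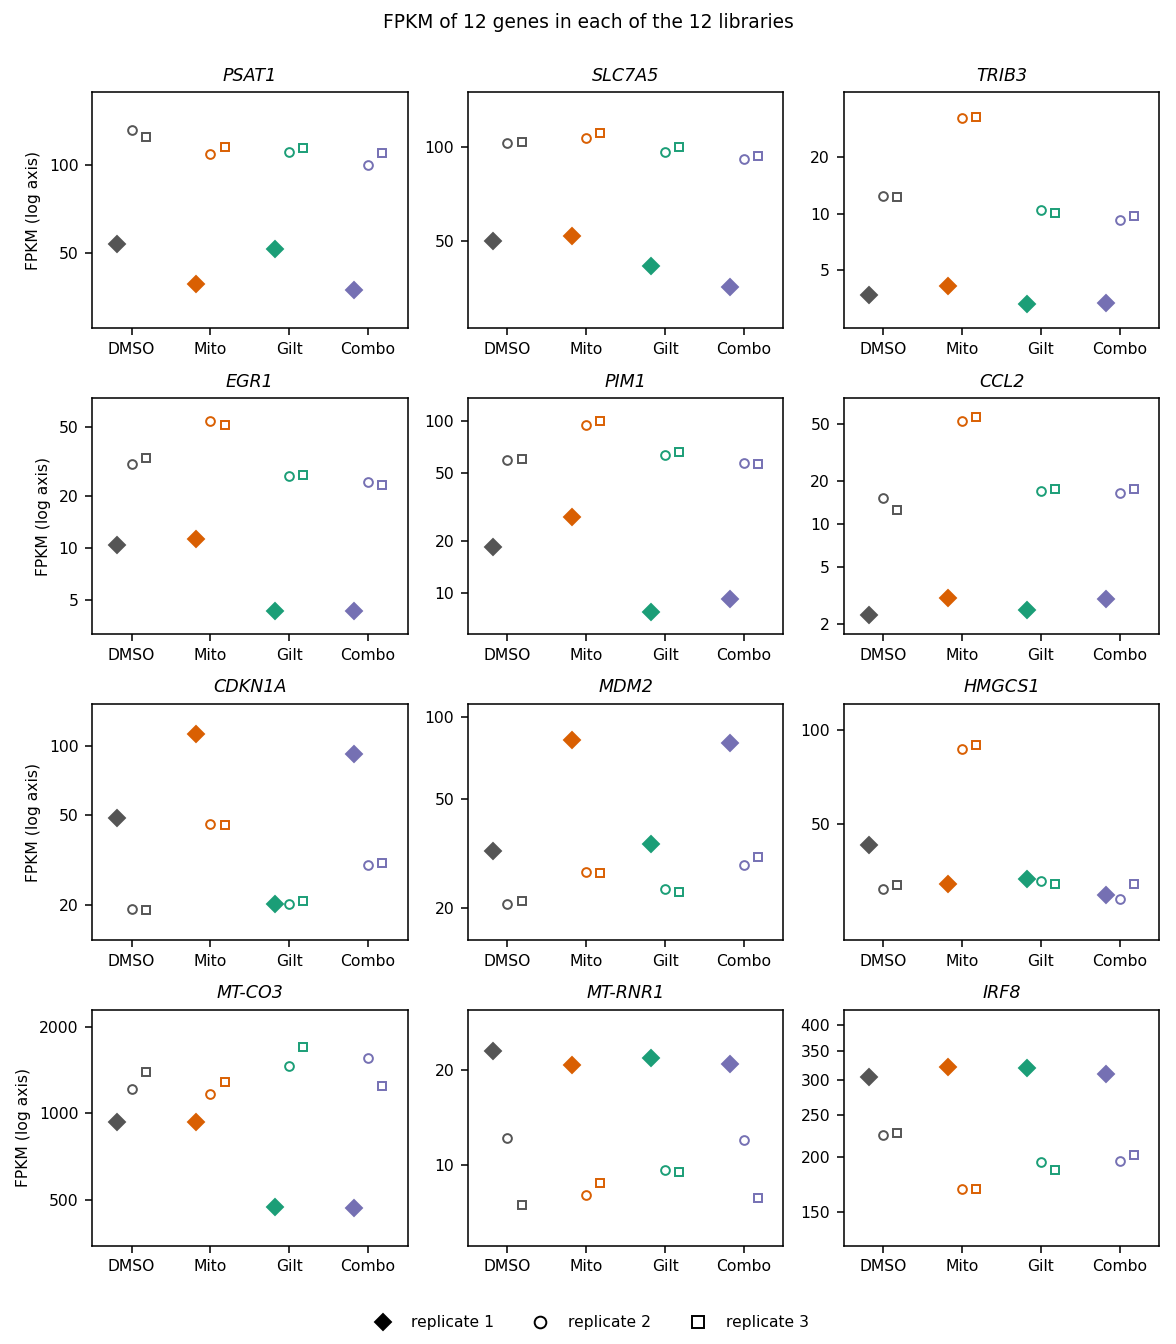
FPKM of 12 genes (log axis) in each library, by treatment (Mito is Mitoxantrone, Gilt is Gilteritinib, Combo is Drug-combination); filled diamonds are replicate 1, open circles replicate 2 and open squares replicate 3. Replicate 1 is lowest in each treatment for PSAT1, SLC7A5, TRIB3, EGR1, PIM1 and CCL2, while CDKN1A is level in Gilteritinib (20.2, 20.3 and 20.8) and HMGCS1 is apart in Mitoxantrone (32.2, 86.8 and 89.5).

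A chemokine, membrane proteins, a G protein regulator and a desaturase were among the genes with the largest falls. CCL2 (ENSG00000108691, chr17:34255218-34257203), a chemokine for monocytes, had an FPKM of 2.28, 15.05 and 12.4 in DMSO, 3.04, 52.6 and 55.9 in Mitoxantrone, 2.502, 17.1 and 17.5 in Gilteritinib and 2.97, 16.3 and 17.6 in Drug-combination. Replicate 1 was at most 3.04 and the others at least 12.4, and the shift was -2.62 (SE 0.22, adjusted p = 6.45e-05). OCSTAMP, a membrane protein of osteoclast fusion, shifted by -2.34 (SE 0.21, adjusted p = 7.68e-05), and RGS16, a brake on G protein signals, by -1.78 (SE 0.17, adjusted p = 1.15e-04). ABCA1, the cholesterol exporter, was at 3.22 ± 0.417 (SD, n = 4) against 12.4 ± 1.79 (SD, n = 8), a shift of -1.66 (SE 0.07, adjusted p = 3.45e-06). SCD, the stearoyl-CoA desaturase, was at 67.3 ± 13.6 (SD, n = 4) against 212 ± 49.95 (SD, n = 8), a shift of -1.63 (SE 0.12, adjusted p = 3.24e-05). CD52 shifted by -1.64 (SE 0.28, adjusted p = 0.00184), with its highest values, 15.8 and 20.03, in Mitoxantrone replicates 2 and 3.

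Many genes of cell growth fell by smaller amounts. Of 44 genes of MYC and ribosome biogenesis, 3 rose, 25 fell and 16 did not pass the test (median -0.21). MYC was at 83.6 ± 9.31 (SD, n = 4) against 125 ± 7.83 (SD, n = 8), a shift of -0.57 (SE 0.07, adjusted p = 3.05e-04). Of 76 cytosolic ribosomal protein genes, 5 rose, 37 fell and 34 did not pass the test (median -0.16), and RPL19 shifted by -0.45 (SE 0.04, adjusted p = 7.68e-05). Ribosomal protein genes held 7.56 to 8.17% of summed FPKM in replicate 1 and 8.397 to 8.83% in the others, below both in all 4 treatments (two-sided exact permutation test within treatments, p = 0.0123, the smallest it allows, and 0.0277 adjusted over 9 traits). These mRNAs have many processed pseudogenes, so the split of their reads is uncertain.

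Over the G1, S phase and DNA replication list, falls were more frequent than rises. Of 56 genes tested, 3 rose, 35 fell and 18 did not pass the test (median -0.21). RRM2, the small subunit of ribonucleotide reductase, had an FPKM of 109, 168 and 164 in DMSO, 99.8, 145 and 148 in Mitoxantrone, 132, 166 and 165 in Gilteritinib and 106, 157 and 164 in Drug-combination. The replicate 1 library was the lowest in each treatment, with a shift of -0.52 (SE 0.05, adjusted p = 7.85e-05). CCND3, a G1 cyclin, shifted by -0.69 (SE 0.06, adjusted p = 7.86e-05) and E2F8, a repressor of E2F targets, by -0.43 (SE 0.04, adjusted p = 1.004e-04). Of 22 replication-dependent histone genes, 2 rose, 8 fell and 12 did not pass the test (median -0.13). The treatments differed in direction, with 6 higher and 1 lower in Gilteritinib (median 0.18), 0 and 8 in Drug-combination (-0.27), 2 and 4 in Mitoxantrone (-0.21) and 0 and 0 in DMSO (-0.06). HIST1H2BN shifted by -0.41 (SE 0.06, adjusted p = 0.00129), while HIST2H3A and HIST2H3C, near-identical copies whose reads cannot be assigned with certainty, shifted by 1.60 (SE 0.26, adjusted p = 0.00136) and 1.34 (SE 0.23, adjusted p = 0.00182). Of 48 G2 and mitosis genes, 8 rose (16.7%), 6 fell (12.5%) and 34 did not pass the test, beside 26.9% and 12.7% of all genes. Their median of 0.05 joined opposite directions, with 0.17 in DMSO, 0.24 in Gilteritinib, -0.09 in Mitoxantrone and -0.15 in Drug-combination. MKI67, a marker of cycling cells, was among those that fell, with a shift of -0.46 (SE 0.08, adjusted p = 0.00209).

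Of 30 genes of hypoxia and glycolysis, 2 rose, 18 fell and 10 did not pass the test (median -0.24). VEGFA, the endothelial growth factor, had an FPKM of 2.82, 6.63 and 7.01 in DMSO, 2.896, 11.7 and 10.9 in Mitoxantrone, 2.31, 6.19 and 5.75 in Gilteritinib and 2.13, 5.58 and 5.46 in Drug-combination. Replicate 1 was at most 2.90 and no other library was under 5.46, with a shift of -1.21 (SE 0.10, adjusted p = 5.19e-05). NDRG1, a hypoxia and iron-depletion response gene, shifted by -0.96 (SE 0.13, adjusted p = 5.83e-04) and GPI, of glycolysis, by -0.32 (SE 0.03, adjusted p = 1.74e-04). Of 23 cholesterol synthesis genes, 3 rose, 9 fell and 11 did not pass the test (median -0.15). SREBF2, their transcription factor, shifted by -0.47 (SE 0.03, adjusted p = 9.79e-06), with -0.47 in DMSO, -0.49 in Mitoxantrone, -0.51 in Gilteritinib and -0.43 in Drug-combination. DHCR7, of the last steps of the pathway, shifted by -1.31 (SE 0.11, adjusted p = 5.91e-05).

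Genes that rose included p53 targets and myeloid genes. Of 51 p53 targets, 29 rose (56.9%, beside 26.9% of all genes), 5 fell and 17 did not pass the test, with a median of 0.30. Within treatments the median was 0.11 in DMSO, 0.55 in Mitoxantrone, 0.12 in Gilteritinib and 0.48 in Drug-combination. Over all genes it was 0.10, 0.11, 0.03 and 0.10 in the same order, so in DMSO the list was near all genes. RRM2B, a p53-induced subunit of ribonucleotide reductase, had an FPKM of 37.3, 26.7 and 26.3 in DMSO, 41.9, 25.5 and 26.4 in Mitoxantrone, 43.8, 24.8 and 24.2 in Gilteritinib and 52.6, 25.6 and 29.1 in Drug-combination. Replicate 1 was at least 37.3 and no other library was above 29.1, with a shift of 0.72 (SE 0.06, adjusted p = 7.91e-05). APAF1, of the apoptosome, shifted by 0.47 (SE 0.05, adjusted p = 1.59e-04) and FBXO22, an F-box protein, by 0.51 (SE 0.06, adjusted p = 1.88e-04). The 5 members that fell were GADD45B, PMAIP1, SUSD6, TNFRSF10C and TRAF4, with shifts of -0.52, -0.45, -0.33, -0.31 and -0.24. PMAIP1 encodes the BH3-only protein NOXA, which other factors also induce.

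Of 30 genes of monocytes and granulocytes, 15 rose, 8 fell and 7 did not pass the test, with a median of 0.24. In DMSO alone 5 were higher and 6 lower, with a median of -0.03, beside medians of 0.38 in Mitoxantrone, 0.30 in Gilteritinib and 0.38 in Drug-combination. IRF8 (ENSG00000140968, chr16:85898803-85922609), a transcription factor of monocytes, had an FPKM of 305, 224 and 227 in DMSO, 321, 169.8 and 169.6 in Mitoxantrone, 321, 195 and 188 in Gilteritinib and 310.1, 196 and 203 in Drug-combination. The 4 replicate 1 values, from 305 to 321, were above the 8 others, with a shift of 0.68 (SE 0.06, adjusted p = 9.47e-05). S100A8, a subunit of calprotectin, was at 5.82 ± 0.9399 (SD, n = 4) against 1.89 ± 0.289 (SD, n = 8), a shift of 1.23 (SE 0.10, adjusted p = 4.52e-05), and CD36, a scavenger receptor, shifted by 0.65 (SE 0.05, adjusted p = 6.25e-05). LYZ, the lysozyme, named after its values were seen, had 686, 506 and 490.4 in DMSO, 929.7, 493 and 530.3 in Mitoxantrone, 1176, 539 and 560.0 in Gilteritinib and 1333, 551 and 596 in Drug-combination. Replicate 1 was the highest in each treatment and differed between treatments from 686 to 1333. The integrins ITGAX and ITGAM, the receptor CSF1R and the Fc receptor FCGR1A were among the 8 that fell, with shifts of -0.97, -0.91, -0.79 and -0.65.

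On the lists of inflammation and antigen presentation some genes rose and others fell. Of all genes tested 26.9% rose and 12.7% fell, and on each of these lists rises were less frequent and falls more frequent. Of 15 NF-kB and cytokine genes, 2 rose, 6 fell and 7 did not pass the test (median -0.08), with ICAM1, an adhesion molecule, at -1.16 (SE 0.13, adjusted p = 2.54e-04) and TNFAIP2 at 0.52 (SE 0.08, adjusted p = 0.00131). Of 19 interferon-stimulated genes, 2 rose (10.5%), 4 fell (21.1%) and 13 did not pass the test (median -0.00). Among protein-coding genes 27.5% rose and 18.6% fell, so falls on the interferon list were about as frequent as among these. IFITM1, which restricts viral entry, was at -0.69 (SE 0.06, adjusted p = 6.72e-05). IFITM2, its neighbour of like sequence, was at -0.67 (SE 0.10, adjusted p = 0.00104) and HERC5, the ISG15 ligase, at 0.46 (SE 0.07, adjusted p = 9.83e-04). Of 9 antigen presentation genes, 1 rose, 4 fell and 4 did not pass the test (median -0.16), and in Drug-combination 3 were higher and 2 lower (median 0.10). CD74, the invariant chain, was at 105 ± 18.1 (SD, n = 4) against 167 ± 16.99 (SD, n = 8), a shift of -0.67 (SE 0.06, adjusted p = 6.25e-05). HLA-DRB1, which differs between people and shares reads with related genes, shifted by -0.75 (SE 0.08, adjusted p = 1.87e-04), and B2M by 0.28 (SE 0.07, adjusted p = 0.00868). B2M did not pass after median-ratio scaling (0.16, adjusted p = 0.174) or GC centring (0.13, adjusted p = 0.175).

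Mitochondrially encoded RNAs divided by class. Of 15 genes tested, 2 rose, 10 fell and 3 did not pass the test, with a median of -0.71. The 2 that rose were the ribosomal RNAs MT-RNR1 and MT-RNR2, and the 10 that fell were mRNAs. MT-RNR1 had an FPKM of 23.03, 12.1 and 7.44 in DMSO, 20.7, 7.996 and 8.71 in Mitoxantrone, 21.9, 9.63 and 9.47 in Gilteritinib and 20.9, 12.01 and 7.84 in Drug-combination. Its replicate 1 libraries lay between 20.7 and 23.03, above the 8 others, with a shift of 1.14 (SE 0.12, adjusted p = 1.999e-04), and MT-RNR2 shifted by 0.90 (SE 0.13, adjusted p = 8.91e-04). MT-CO3, a subunit of cytochrome oxidase, measured 934, 1209.7 and 1396 in DMSO, 933, 1169.5 and 1288 in Mitoxantrone, 473, 1462 and 1692 in Gilteritinib and 466, 1554 and 1243 in Drug-combination. The replicate 1 libraries with gilteritinib, at 473 and 466, were the lowest of the 12, and the shift was -1.04 (SE 0.21, adjusted p = 0.00406). The mitochondrial chromosome held 1.64 to 3.32% of summed FPKM in replicate 1 and 3.48 to 4.401% in the others (two-sided exact permutation test within treatments, p = 0.0123, 0.0277 adjusted over 9 traits). Of 73 nuclear genes of the respiratory chain, 8 rose, 20 fell and 45 did not pass the test (median -0.02), with ATP5MF, of the ATP synthase, at -0.67 (SE 0.07, adjusted p = 1.72e-04), COX4I1 at -0.30 (SE 0.04, adjusted p = 8.77e-04) and COX8A at -0.32 (SE 0.05, adjusted p = 9.88e-04).

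Most KRAB zinc finger genes and nuclear long non-coding RNAs tested rose. KRAB zinc finger genes encode repressors of transposable elements, and of 55 tested 43 rose, 1 fell and 11 did not pass the test (median 0.30). ZNF254 had an FPKM of 11.1, 5.84 and 6.12 in DMSO, 9.41, 6.91 and 5.52 in Mitoxantrone, 11.3, 5.99 and 5.43 in Gilteritinib and 11.9, 5.85 and 5.84 in Drug-combination. Replicate 1 was the highest library in each treatment, with a shift of 0.78 (SE 0.07, adjusted p = 9.95e-05), and ZNF420 and ZNF182 shifted by 0.67 (SE 0.06, adjusted p = 9.84e-05) and 0.53 (SE 0.05, adjusted p = 1.14e-04). Of 7 nuclear long non-coding RNAs, 5 rose, 0 fell and 2 did not pass the test (median 0.46). FTX, from the X inactivation centre, shifted by 0.62 (SE 0.08, adjusted p = 4.09e-04), KCNQ1OT1, an imprinted antisense RNA, by 0.46 (SE 0.08, adjusted p = 0.00149) and NEAT1, the scaffold of paraspeckles, by 0.76 (SE 0.15, adjusted p = 0.00352). NEAT1 was at 54.7, 48.5 and 30.0 in Mitoxantrone replicates 1, 2 and 3, so the classes were close there.

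Of 17 abundant small RNAs of RNPs and of RNA polymerase III, 8 rose, 2 fell and 7 did not pass the test (median 0.35). The size was not alike in the treatments, with medians of 0.96 in DMSO, 0.24 in Mitoxantrone, 0.65 in Gilteritinib and 0.22 in Drug-combination. RNU4-1, a U4 spliceosomal RNA, had an FPKM of 214, 38.2 and 38.1 in DMSO, 100.4, 46.9 and 58.2 in Mitoxantrone, 198, 55.9 and 34.7 in Gilteritinib and 115, 38.9 and 41.1 in Drug-combination. Every replicate 1 library was above the 8 others, with a shift of 1.76 (SE 0.22, adjusted p = 3.66e-04). RNU4-2, whose sequence is nearly that of RNU4-1, shifted by 1.34 (SE 0.23, adjusted p = 0.00178), and RNU6ATAC, of the minor spliceosome, by 1.66 (SE 0.23, adjusted p = 6.55e-04). Of 24 snoRNA host and other long non-coding genes, 2 rose, 3 fell and 19 did not pass the test (median -0.00), with SNHG19 at -0.71 (SE 0.13, adjusted p = 0.00261), SNHG16 at -0.27 (SE 0.06, adjusted p = 0.004303) and TUG1 at 0.19 (SE 0.04, adjusted p = 0.00527). TUG1 did not pass after median-ratio scaling (0.07, adjusted p = 0.276) or GC centring (0.09, adjusted p = 0.0669).

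The remaining lists had medians from -0.04 to 0.12. Of all genes tested 26.9% rose and 12.7% fell, and of protein-coding genes 27.5% and 18.6%. The shares were 28.6% and 17.9% for BCL2 family and apoptosis genes, 31.03% and 17.2% for mRNA decay factors and 21.1% and 18.4% for splicing genes. Falls on these lists were thus about as frequent as among protein-coding genes, and rises were not much more frequent. Heat shock genes, with 13.3% and 33.3%, fell more often, and chaperone genes rose more often. Of 28 BCL2 family and apoptosis genes, 8 rose, 5 fell and 15 did not pass the test, with BCL2L11, the BH3-only protein BIM, at -0.41 (SE 0.06, adjusted p = 0.00113) and CFLAR, an inhibitor of caspase-8, at 0.29 (SE 0.05, adjusted p = 0.00138). Of 35 lysosome and autophagy genes, 10 rose, 3 fell and 22 did not pass the test, so 28.6% rose beside 26.9% of all genes. On this list 1 gene was higher and 7 lower in DMSO (median -0.09), against 15 and 1 in Drug-combination (median 0.26). GUSB was at -0.33 (SE 0.03, adjusted p = 9.93e-05), ASAH1 at 0.35 (SE 0.06, adjusted p = 0.00122) and ATP6V1B2 at 0.15 (SE 0.03, adjusted p = 0.00785). Of 20 chaperone and unfolded protein response genes, 9 rose, 4 fell and 7 did not pass the test, with XBP1, a transcription factor of that response, at -0.83 (SE 0.04, adjusted p = 4.92e-06), EDEM1 at -0.39 (SE 0.07, adjusted p = 0.002001) and CRELD2 at 0.32 (SE 0.05, adjusted p = 7.43e-04). Of 15 heat shock genes, 2 rose, 5 fell and 8 did not pass the test, and 8 were lower and 0 higher in Drug-combination (median -0.34), with HSPA4L at 0.29 (SE 0.05, adjusted p = 0.00217), DNAJB1 at 0.20 (SE 0.04, adjusted p = 0.00657) and FKBP4 at -0.24 (SE 0.06, adjusted p = 0.0124). Of 38 splicing genes, 8 rose, 7 fell and 23 did not pass the test, with the kinase CLK4 at 0.43 (SE 0.05, adjusted p = 2.62e-04), HNRNPA1 at -0.39 (SE 0.05, adjusted p = 5.07e-04) and SF3A1 at -0.36 (SE 0.05, adjusted p = 6.03e-04). Of 29 mRNA decay factors, 9 rose, 5 fell and 15 did not pass the test, with the deadenylase subunits CNOT2 at 0.32 (SE 0.04, adjusted p = 3.02e-04) and CNOT6 at 0.17 (SE 0.03, adjusted p = 0.00319). HSPA4L, CNOT2 and ASAH1 no longer passed after GC centring, at 0.12, 0.05 and 0.15 (adjusted p = 0.112, 0.207 and 0.085), and DNAJB1 after median-ratio scaling, at 0.08 (adjusted p = 0.32). HSPA4L also missed the threshold after median-ratio scaling and quantile normalization (adjusted p = 0.0511 and 0.103). ATP6V1B2 and CNOT6 turned to -0.01 and -0.00 after GC centring, and the chaperone and decay medians, 0.07 and 0.05, turned to -0.06 and -0.07 after median-ratio scaling.

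By gene type, falls were largely among protein-coding genes. Over all genes tested 26.9% rose and 12.7% fell. Of 10506 protein-coding genes, 2890 rose (27.5%) and 1950 fell (18.6%), with a median of 0.04 that turned to -0.07 after median-ratio scaling. Of 1817 processed pseudogenes, which are copies of mRNAs inserted in the genome, 463 rose (25.5%) and 78 fell (4.29%, median 0.17). Of 399 sense intronic transcripts, 135 rose and 6 fell (median 0.24), of 1617 antisense genes 425 rose and 80 fell (median 0.15), and of 463 microRNA hairpin genes 115 rose and 14 fell (median 0.28). Of 20 mitochondrial tRNA genes, 0 rose and 11 fell (median -0.65), among them MT-TD at -1.06 (SE 0.24, adjusted p = 0.006499) and MT-TS2 at -1.02 (SE 0.18, adjusted p = 0.00219). The tRNA medians were -0.35 in DMSO and -0.22 in Mitoxantrone, against -1.18 in Gilteritinib and -1.03 in Drug-combination. Whether the counting used strand is not given in the sources used here, so antisense genes such as AC084871.1, at -1.03 (SE 0.09, adjusted p = 6.64e-05), and AP000763.3, at -0.96 (SE 0.13, adjusted p = 6.205e-04), cannot be told apart from genes on the other strand. RF00019, a Y RNA copy, shifted by -1.08 (SE 0.25, adjusted p = 0.00834).

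The shift varied with GC content, the share of G and C in the exons of a gene. Of 593 genes with at most 35% GC, 48.9% rose and 3.20% fell (median 0.28). Of 2197 genes with 55 to 60% GC, 13.5% rose and 22.3% fell (median -0.01). Above 70% GC, 64.1% of 78 genes rose and 3.85% fell (median 0.73). In the bin of at most 35% the medians were 0.34 in DMSO, 0.19 in Mitoxantrone, 0.35 in Gilteritinib and 0.28 in Drug-combination. For its protein-coding genes they were 0.29, 0.09, 0.39 and 0.26 in the same order, so Mitoxantrone was the lowest. Above 70% the medians were 0.29 in DMSO, 1.07 in Mitoxantrone, 0.93 in Gilteritinib and 0.58 in Drug-combination. The ATF4, immediate early and FLT3 output lists have a median GC of 51.8, 54.5 and 55.7%, and the KRAB zinc fingers 40.7%. After GC centring the medians of these 4 lists were -0.61, -0.53, -0.56 and 0.16. By level, 27.6% of the 3715 genes in the highest quintile of mean FPKM fell and 22.3% rose, against 5.01% and 24.8% in the lowest quintile. By exon length, 3.95% of the shortest quintile (21 to 462 bases) fell and 14.3% of the longest.

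**Figure D3:**
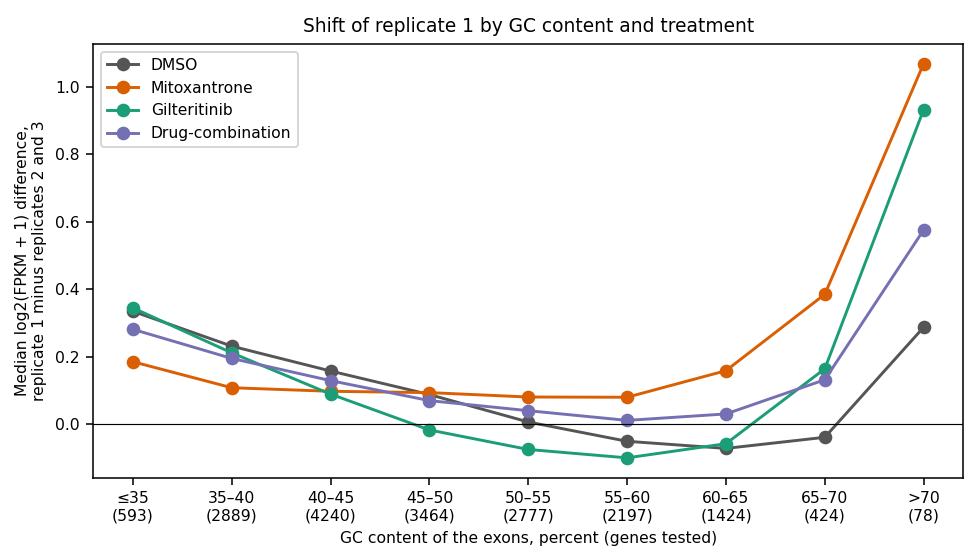
Median difference of log2(FPKM + 1) between replicate 1 and replicates 2 and 3 in bins of exon GC content (number of genes tested in brackets), for each treatment. The lines lie between 0.19 and 0.35 in the bin of at most 35% GC and spread from 0.29 in DMSO to 1.07 in Mitoxantrone above 70%.

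The largest rises were in RNA of the ribosomal RNA repeat. MIR3648-1, a gene with a GC content of 83.9% within the repeat on chromosome 21 (ENSG00000275708, chr21:8208473-8208652), had an FPKM of 2600.2, 158 and 403 in DMSO, 1907, 0.175 and 0 in Mitoxantrone, 1773, 0.151 and 0.587 in Gilteritinib and 2583, 9.77 and 18.6 in Drug-combination. Replicate 1 was at least 1773 in all 4 treatments, while replicates 2 and 3 ranged from 0 in Mitoxantrone to 403 in DMSO. The shift was 7.99 (SE 0.97, adjusted p = 3.51e-04), and since values near 0 rest on few fragments its size depends on the pseudocount. The mature miR-3648, which these data do not measure, is shown for its GC-rich sequence, with the seed (bases 2 to 8) in capitals, as RefSeq gives it for the copy MIR3648-2 (GRCh38.p14) at chr21:8987026-8987046 on the plus strand.
hsa-miR-3648: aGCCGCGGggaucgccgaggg
Of the copies of the 5.8S ribosomal RNA, listed as RNA5-8SN2, 4 were named by the rule and rose by 5.10 to 5.45 on the log2 scale. The copies are near-identical, so the level of each alone is uncertain. Repeat genes together held 0.906 to 1.39% of summed FPKM in replicate 1 and 0.00666 to 0.437% in the others (two-sided exact permutation test within treatments, p = 0.0123, 0.0277 adjusted over 9 traits, a trait added after seeing the data).

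Several of the largest protein-coding rises were of GC-rich mRNAs. LINGO3, a membrane protein with leucine-rich repeats, had an FPKM of 18.3, 8.34 and 13.1 in DMSO, 23.2, 1.997 and 1.25 in Mitoxantrone, 18.6, 1.59 and 1.87 in Gilteritinib and 22.4, 5.8996 and 6.16 in Drug-combination. Replicate 1 was the highest in each treatment, by the least in DMSO, with a shift of 2.14 (SE 0.33, adjusted p = 0.00108). ENDOG, the mitochondrial nuclease, shifted by 1.78 (SE 0.18, adjusted p = 1.38e-04), CTU1, which modifies tRNA, by 1.31 (SE 0.16, adjusted p = 3.21e-04) and LTC4S, the leukotriene C4 synthase, by 1.66 (SE 0.24, adjusted p = 7.46e-04). These 4 genes have a GC content of 69.7, 67.7, 68.2 and 71.4%. ABR, a guanine nucleotide exchange factor, shifted by 1.60 (SE 0.22, adjusted p = 6.46e-04), with DMSO replicate 3 at 7.92 near DMSO replicate 1 at 9.87. CYP1B1, which oxidises aryl hydrocarbons and estrogens, was at 26.8 ± 5.09 (SD, n = 4) against 9.603 ± 3.66 (SD, n = 8), a shift of 1.46 (SE 0.21, adjusted p = 7.104e-04). IGLL1, the surrogate light chain, shifted by 1.44 (SE 0.18, adjusted p = 4.05e-04) and FUCA1, a lysosomal fucosidase that p53 induces, by 1.29 (SE 0.18, adjusted p = 6.39e-04).

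Within each treatment the same comparison has 1 library against 2. It called 2703 genes in DMSO (14.6%), of which 1486 were higher (8.0%) and 1217 lower (6.55%), and 2372 in Mitoxantrone (12.8%), with 1436 higher (7.73%) and 936 lower (5.04%). It called 3529 genes in Gilteritinib (19.0%), with 1915 higher (10.3%) and 1614 lower (8.69%), and 3587 in Drug-combination (19.3%), with 2073 higher (11.2%) and 1514 lower (8.15%). The balance turned with the scaling, since after median-ratio scaling 537 were higher and 1199 lower in DMSO, 516 and 1086 in Mitoxantrone, 1137 and 1218 in Gilteritinib and 865 and 1894 in Drug-combination. After GC centring and after quantile normalization more genes were lower than higher in all 4 as well. In DMSO the count was 486 without replicate 2 (180 higher and 306 lower) and 581 without replicate 3 (243 and 338). In Mitoxantrone it was 1159 without its replicate 3, in Gilteritinib 1744 and 1460 without its replicates 2 and 3, and in Drug-combination 1690 and 2323 without its replicates 2 and 3. Without DMSO replicate 2 or 3 it was 1351 and 1349 in Mitoxantrone and 2365 and 2369 in Drug-combination, and without Gilteritinib replicate 2 or 3 it was 1560 and 1549 in Mitoxantrone. Across the 18574 genes, which are not independent, the shifts of 2 treatments correlated with r from 0.49 (DMSO and Mitoxantrone) to 0.66 (Gilteritinib and Drug-combination), and the libraries of a treatment share no library with another. An F test of whether the shift of a gene differed between the 4 treatments gave an unadjusted p under 0.05 in 3869 genes (20.8%). After adjustment it called 347 genes (1.87%). This count depended on the settings: it was 1 after median-ratio scaling, 43 after GC centring, 38 with the replicate number as a block, 1975 among protein-coding genes alone, 0 without DMSO replicate 3 and 5 without DMSO replicate 2 or without Mitoxantrone replicate 3. The differences below are therefore given by library. Set against the mean shift of the other 3 treatments, Mitoxantrone differed in 571 genes (3.07%), 305 higher (1.64%) and 266 lower (1.43%), and DMSO in 154 (0.829%), 44 higher (0.237%) and 110 lower (0.592%). Drug-combination differed in 39 genes (0.21%), 31 higher (0.167%) and 8 lower (0.0431%), and Gilteritinib in 3 (0.0162%), 1 higher (0.00538%) and 2 lower (0.0108%). These counts were not stable. For Mitoxantrone the count was 185 with the replicate block (85 higher and 100 lower), 76 after median-ratio scaling (16 and 60), 108 after GC centring (16 and 92) and 26 without DMSO replicate 3 (7 and 19), and 8 of 11 libraries moved it by over 1.5 times when left out. For DMSO it was 10 with the block, 1 after median-ratio scaling, 18 after GC centring and 0 without DMSO replicate 3, and for Drug-combination it was 0 under each of these 4 settings.

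The shift with mitoxantrone (Mitoxantrone and Drug-combination) differed from the shift without it in 240 genes (1.29%), 149 higher (0.802%) and 91 lower (0.49%), a contrast chosen after seeing the data. The count was 48 with the replicate block, 0 after median-ratio scaling and 1 without DMSO replicate 3, and 11 of the 12 libraries moved it by over 1.5 times when left out. The calls that follow are without the block unless it is named. CDKN1A, ADA, FUCA1, HMGCS1, PIM1, PHLDA1, RPL13P12 and CLEC11A were named for their small p in the F test between treatments. The contrasts given here and below are parts of that test, so their adjusted p for these genes is not separate support. Of 51 p53 targets, 15 had a higher shift with mitoxantrone and 0 a lower one (5 and 0 with the block), and the list's median shift was 0.11 in DMSO, 0.55 in Mitoxantrone, 0.12 in Gilteritinib and 0.48 in Drug-combination. CDKN1A (ENSG00000124762, chr6:36676460-36687339), which encodes the cell cycle inhibitor p21, had an FPKM of 48.4, 19.3 and 19.1 in DMSO, 113, 45.4 and 45.1 in Mitoxantrone, 20.2, 20.3 and 20.8 in Gilteritinib and 92.1, 30.1 and 30.7 in Drug-combination. Replicate 1 was above both other libraries except in Gilteritinib, where it was the lowest by a narrow margin. The contrast of CDKN1A was 0.80 (SE 0.04, adjusted p = 0.00511). MDM2, which degrades p53, named after its values were seen, had 32.3, 20.6 and 21.1 in DMSO, 82.8, 27.2 and 26.8 in Mitoxantrone, 34.4, 23.4 and 22.8 in Gilteritinib and 80.3, 28.6 and 30.6 in Drug-combination. Its replicate 1 libraries were at 82.8 and 80.3 with mitoxantrone and at 32.3 and 34.4 without it, and the contrast was 0.92 (SE 0.05, adjusted p = 0.00831). ADA, adenosine deaminase, measured 36.3, 33.8 and 33.6 in DMSO, 77.9, 28.96 and 29.1 in Mitoxantrone, 39.4, 29.9 and 29.8 in Gilteritinib and 67.7, 34.3 and 34.8 in Drug-combination, with a contrast of 0.93 (SE 0.03, adjusted p = 0.00238). FUCA1 had a contrast of 0.89 (SE 0.05, adjusted p = 0.00831). With the block the adjusted p was 0.0284 for CDKN1A, MDM2 and FUCA1 and 0.0252 for ADA.

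Of 48 G2 and mitosis genes, 15 had a lower shift with mitoxantrone and 0 a higher one (5 and 0 with the block), and the list's median shift was 0.17 in DMSO, -0.09 in Mitoxantrone, 0.24 in Gilteritinib and -0.15 in Drug-combination. CENPE, a kinetochore motor named after its values were seen, had an FPKM of 23.02, 15.1 and 15.5 in DMSO, 12.1, 13.2 and 13.6 in Mitoxantrone, 25.4, 15.5 and 16.3 in Gilteritinib and 14.6, 15.5 and 14.8 in Drug-combination. Replicate 1 was the highest of its treatment in DMSO and Gilteritinib and the lowest in the 2 treatments with mitoxantrone, with a contrast of -0.70 (SE 0.06, adjusted p = 0.0126). CCNB1, the mitotic cyclin, named in the same way, had a contrast of -0.51 (SE 0.04, adjusted p = 0.0126). Of 23 cholesterol synthesis genes, 8 had a lower shift and 0 a higher one (4 and 0 with the block), with list medians of 0.14 in DMSO, -0.63 in Mitoxantrone, -0.12 in Gilteritinib and 0.02 in Drug-combination. HMGCS1 (ENSG00000112972, chr5:43289395-43313512), of the mevalonate pathway, measured 42.9, 30.9 and 31.9 in DMSO, 32.2, 86.8 and 89.5 in Mitoxantrone, 33.5, 32.8 and 32.1 in Gilteritinib and 29.8, 28.8 and 32.1 in Drug-combination. The 2 Mitoxantrone libraries of the other class stood apart from the other 10, and Drug-combination did not share this, with shifts of 0.44 in DMSO, -1.43 in Mitoxantrone, 0.04 in Gilteritinib and -0.03 in Drug-combination and a contrast of -0.97 (SE 0.07, adjusted p = 0.0114).

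The shift with gilteritinib (Gilteritinib and Drug-combination) differed from the shift without it in 296 genes (1.59%), 144 higher (0.775%) and 152 lower (0.818%), also a contrast chosen after seeing the data. The gilteritinib dose was 25 nM alone and 20 nM in the combination. The count was 15 with the replicate block, 0 after median-ratio scaling, and also 0 without DMSO replicate 3, Drug-combination replicate 2, Gilteritinib replicate 2 or Gilteritinib replicate 3, and 3317 genes had an unadjusted p under 0.05. Each of the 12 libraries moved it by over 1.5 times when left out. Of 15 mitochondrially encoded genes, 9 had a lower shift and 0 a higher one (0 and 0 with the block), with list medians of -0.17 in DMSO, 0.05 in Mitoxantrone, -1.45 in Gilteritinib and -1.26 in Drug-combination. Of 44 genes of MYC and ribosome biogenesis, 14 had a lower shift and 0 a higher one (0 and 0 with the block), with medians of -0.09 in DMSO, -0.09 in Mitoxantrone, -0.25 in Gilteritinib and -0.39 in Drug-combination. PIM1 had a contrast of -0.996 (SE 0.05, adjusted p = 0.0107). Its level with gilteritinib was 7.75 and 9.19 in replicate 1 and 56.4 to 66.2 in the others. Of 30 hypoxia and glycolysis genes, 6 had a higher shift with gilteritinib and 0 a lower one (1 and 0 with the block), among them NDRG1, with a contrast of 0.68 (SE 0.05, adjusted p = 0.0163). PHLDA1, a pleckstrin homology-like protein, had 4.805, 11.5 and 11.5 in DMSO, 6.99, 28.3 and 28.1 in Mitoxantrone, 6.29, 10.4 and 10.7 in Gilteritinib and 8.72, 12.7 and 12.9 in Drug-combination, with a contrast of 0.90 (SE 0.05, adjusted p = 0.0107). Its fall was thus larger without gilteritinib, and the highest libraries were Mitoxantrone replicates 2 and 3. With the block the adjusted p was 0.0453 for PIM1 and 0.0496 for NDRG1 and PHLDA1.

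**Figure D4:**
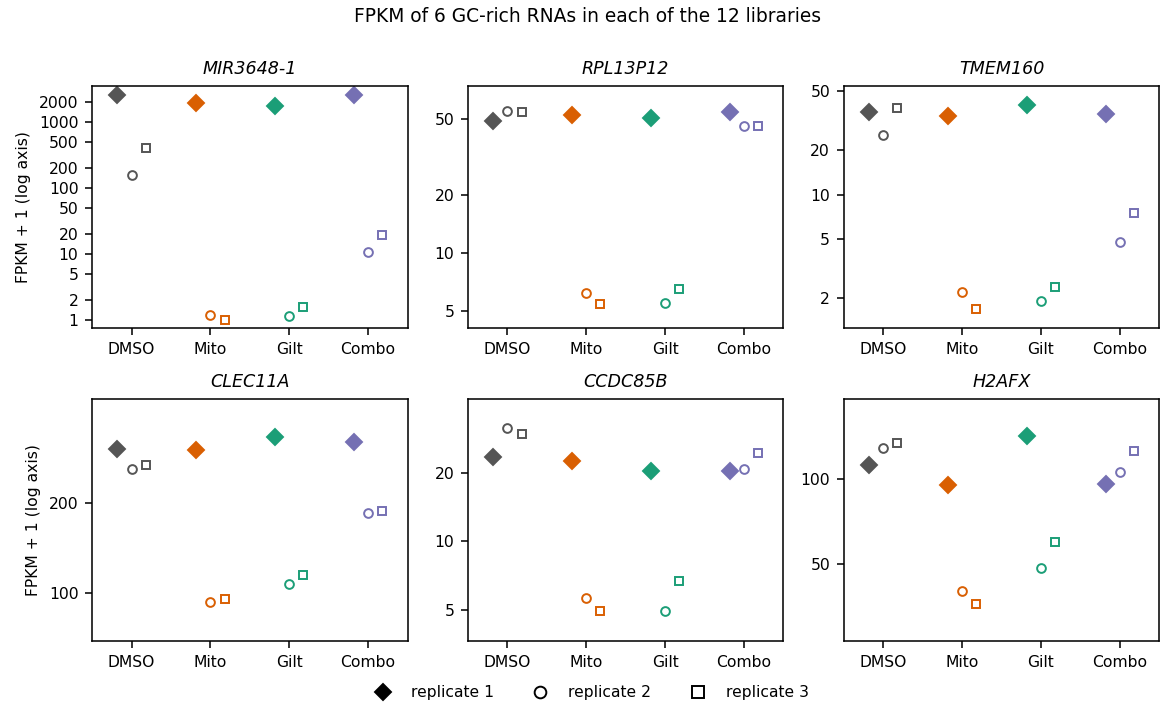
FPKM + 1 (log axis) of 6 GC-rich RNAs in each library, by treatment as in the plot of 12 genes; filled diamonds are replicate 1, open circles replicate 2 and open squares replicate 3. Replicates 2 and 3 are low in Mitoxantrone and Gilteritinib for all 6, and near replicate 1 in DMSO for all but MIR3648-1.

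The mean shift of Mitoxantrone and Gilteritinib differed from that of the other 2 in 51 genes (0.275%), 32 higher (0.172%) and 19 lower (0.102%), and the median GC content was 61.5% for the 32 that were higher and 46.8% over all genes. This contrast was also chosen after seeing the data, and its count was 6 with the replicate block, 2 after median-ratio scaling and 4 without DMSO replicate 3, with each of the 12 libraries moving it by over 1.5 times. RPL13P12 (ENSG00000215030, chr17:17383377-17384012), a processed pseudogene of the ribosomal protein gene RPL13, had an FPKM of 48.2, 54.4 and 53.9 in DMSO, 51.9, 5.15 and 4.45 in Mitoxantrone, 49.9, 4.49 and 5.48 in Gilteritinib and 53.5, 45.4 and 45.3 in Drug-combination. The 4 replicate 1 libraries lay between 48.2 and 53.5, and the 4 low libraries between 4.45 and 5.48, with a contrast of 3.11 (SE 0.11, adjusted p = 0.00188). CLEC11A, a growth factor of blood progenitors, measured 303, 259 and 267 in DMSO, 301, 91.97 and 94.2 in Mitoxantrone, 330.0, 106 and 114 in Gilteritinib and 319.6, 184 and 186 in Drug-combination, with a contrast of 1.14 (SE 0.05, adjusted p = 0.00372). TMEM160, CCDC85B and H2AFX, which encodes the histone variant marked at DNA breaks, were named after their values were seen. TMEM160 had 34.9, 24.02 and 37.6 in DMSO, 32.8, 1.203 and 0.688 in Mitoxantrone, 38.9, 0.913 and 1.37 in Gilteritinib and 33.98, 3.804 and 6.48 in Drug-combination, so its Drug-combination replicates 2 and 3 lay nearer those of Mitoxantrone and Gilteritinib than those of DMSO, and its contrast of 2.80 (SE 0.36, adjusted p = 0.0578) did not pass the test. H2AFX had 111, 127 and 132 in DMSO, 94.3, 39.2 and 35.2 in Mitoxantrone, 141, 47.3 and 58.7 in Gilteritinib and 94.9, 104 and 124 in Drug-combination. Its shift was 1.32 in Mitoxantrone and 1.40 in Gilteritinib, and -0.23 and -0.26 in DMSO and Drug-combination. Reads of RPL13P12 and its parent gene share most of their sequence.

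Of the genes the study followed, CDK2, the cyclin-dependent kinase of S phase, fell, at 17.1 ± 1.68 (SD, n = 4) against 21.2 ± 1.59 (SD, n = 8) and a shift of -0.30 (SE 0.04, adjusted p = 5.65e-04). AKT1 and AKT2, kinases downstream of PI3K, had differences of -0.04 (SE 0.06, adjusted p = 0.589) and -0.04 (SE 0.04, adjusted p = 0.489). Both were called lower after median-ratio scaling, at -0.16 (adjusted p = 0.0338) and -0.16 (adjusted p = 0.00723), and lay at 0.01 and 0.00 against replicate 3 alone. FLT3 mRNA had within-treatment shifts of -0.27 in DMSO, -0.37 in Mitoxantrone, -0.01 in Gilteritinib and 0.10 in Drug-combination, with an F test at an adjusted p of 0.0417.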

How the data were processed

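RNA-seq of 12 libraries of MV4-11 cells was read from a table of FPKM per gene that the authors deposited, with 43876 genes, human Ensembl identifiers and 0 sample columns unused. The submitters' processing notes name Bowtie 0.12.9, Cufflinks 2.1.1, HTSeq, DESeq2 and the mouse build mm10, although the identifiers are human, and whether counting used strand is not given in the sources used here. The labels describe miRNeasy extraction, Geo-seq amplification and a Tn5 transposase kit, whereas the study's methods name TRIzol. Symbols, gene types, lengths and GC content came from GENCODE 29 on GRCh38, which did not hold 3707 identifiers.

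A gene was kept where 3 or more libraries reached an FPKM of 1, which left 18574, and values were log2(FPKM + 1), a scale that understates changes of low genes. Differences were tested with limma 3.58.1 in R 4.3.3, the prior variance following the mean level, and p-values were adjusted over all genes tested by Benjamini-Hochberg, at an adjusted p under 0.05. Treatment was a term for the comparison of replicate 1 with replicates 2 and 3. For comparisons within and between treatments, 1 mean was fitted for each treatment and class, so a lone replicate 1 library was assumed to vary as replicates 2 and 3 do. Since each treatment holds 1 library of each number, treatment is the block of the comparison. Deviations from the treatment means of libraries with the same number correlated in all 18 pairs across treatments. The r was 0.49 to 0.66 for number 1 and 0.16 to 0.47 for numbers 2 and 3. Deviations within a treatment cancel, so a shared shift of replicate 1 alone makes those of numbers 2 and 3 correlate. These r therefore cannot show whether numbers 2 and 3 are matched across treatments. The alternative with a replicate block gave numbers 2 and 3 separate levels. Library traits were tested by a two-sided exact permutation test over 81 arrangements within treatments. Depth was recovered from the steps of low FPKM values, of which 98.7 to 98.9% were whole fragments. Scripts were tested on simulated data, and Python 3.11.15, pandas 2.3.3 and numpy 2.4.6 were used.

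Genes were named by a rule: from each list the 3 genes of lowest adjusted p, the 10 largest protein-coding rises and 10 largest falls and 5 of each among other genes (with replicate 1 beyond both other libraries in each treatment and a mean FPKM of at least 5 in the higher class), the 8 genes with the smallest adjusted p of the difference between treatments, and genes the study names. Some genes that the rule names are not reported here. The split by replicate number, the 27 gene lists and this rule were chosen with earlier results of these data known. Alternatives were another pseudocount, other filters, other scalings, no trend, the replicate block, a fold limit, protein-coding genes only and leaving out each library, and GC centring and voom on rebuilt fragments were added after seeing the data.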

Additional observations from a re-analysis of the deposited data

Results flagged for a closer look

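In 10 cases 1 value stood apart from the others of its group by Dixon's criterion, which chance meets in about 5% of groups. Screened were library traits, 114 named genes and 27 gene lists, so most or all of these cases can arise by chance at that rate. Among the 8 libraries of replicates 2 and 3, DMSO replicate 3 stood apart in the share of FPKM on the ribosomal RNA repeat, at 0.437%. Among the 4 within-treatment shifts of a gene, Mitoxantrone stood apart for VEGFA at -1.66, CCL2 at -3.77, EGR3 at -3.87, TRIB3 at -2.71 and CD52 at -3.10. DMSO stood apart for ABR at 0.87 and for the 5.8S copy RNA5-8SN2 with the identifier ENSG00000278233 at 2.31. Gilteritinib stood apart for MT-RNR2 at 0.59. Drug-combination stood apart for the median of the heat shock list at -0.34.

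The shift differed between the 4 treatments, by limma's F test with Benjamini-Hochberg adjustment, in 22 of the 114 named genes. Over all 18574 genes tested it differed in 347 (1.87%). Of the named genes that differed, 8 (CDKN1A, ADA, RPL13P12, PIM1, FUCA1, CLEC11A, HMGCS1 and PHLDA1) were named for their small p in this same test, so that they pass it follows from the choice. The other 14 were named by other parts of the rule, which pick by the size or p of the replicate 1 shift or, for FLT3, by the study. The named genes are thus not an unselected set. CDKN1A, ADA and RPL13P12 had an adjusted p of 0.00433, and PIM1, FUCA1, CLEC11A, HMGCS1 and PHLDA1 of 0.0101. RGS16 and TRIB3 had 0.0128, and NDRG1, OCSTAMP, EGR3 and SCD had 0.0204. For CCL2 it was 0.0272, for CYP1B1 0.0296, for ICAM1 0.0306, for EGR1 0.0323, for MIR3648-1 0.034, for CD52 0.0387, for DHCR7 0.0406 and for FLT3 0.0417. Under the alternatives the adjusted p of CDKN1A ranged from 4.79e-05 to 0.0725 and passed in 18 of 21, and that of PIM1 ranged from 0.000339 to 0.0886 and passed in 17 of 21. That of FLT3 ranged from 0.0107 to 0.183 and passed in 6 of 21.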

How the results depend on the processing

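The comparison of replicate 1 with replicates 2 and 3 called 7355 genes, and 7123 with the replicate block. Leaving out 1 library gave 5556 to 7439, against replicate 2 alone it was 2408 and against replicate 3 alone 4541, and with a mean FPKM of at least 5 it was 4541 of fewer genes tested. A log2 difference of at least 1 left 243. Replicate 3 against replicate 2 gave 1 gene without a filter, and 0 to 1 when 1 library was left out.

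The replicate block gave 38 genes for the difference between treatments (347 without it), 48 for the mitoxantrone contrast, 15 for the gilteritinib contrast and 6 for Mitoxantrone and Gilteritinib against the other 2. Beside it, 1 treatment against the other 3 gave 10 in DMSO, 185 in Mitoxantrone, 1 in Gilteritinib and 0 in Drug-combination (2689 at an unadjusted p under 0.05 without the block). For these 4 comparisons of treatments, in the same order (difference between treatments, mitoxantrone, gilteritinib, Mitoxantrone with Gilteritinib), the counts were 1, 0, 0 and 2 after median-ratio scaling, 43, 7, 43 and 5 after GC centring, and 31, 11, 15 and 4 with no trend. They were 991, 563, 718 and 124 with a mean FPKM of at least 5, 1975, 1150, 1200 and 303 in protein-coding genes, and 3465, 2884, 2824 and 2229 with no filter. The fold limit left 11, 22 and 14 for the last 3. Without any adjustment, 3235 and 3317 genes passed for the mitoxantrone and gilteritinib contrasts. Leaving out 1 library gave 0 to 499, 1 to 538, 0 to 619 and 4 to 356, with the lowest each without DMSO replicate 3.

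For 1 treatment against the other 3 (DMSO, Mitoxantrone, Gilteritinib and Drug-combination in this order), the counts were 408, 1076, 14 and 216 with a mean FPKM of at least 5, 2245, 2948, 1962 and 2444 with no filter, 763, 1740, 223 and 606 in protein-coding genes, and 0, 87, 1 and 2 with no trend. GC centring gave 18 in DMSO, 108 in Mitoxantrone and 0 in Drug-combination, median-ratio scaling 1, 76 and 0, and the fold limit 25, 70 and 7. Quantile normalization gave 8 in Gilteritinib and 62 in Drug-combination, and a pseudocount of 0.1 gave 25 in Drug-combination. Leaving out 1 library gave 0 to 274, 26 to 619, 1 to 21 and 0 to 143. Within treatments in the same order, the fold limit left 218, 373, 295 and 312, GC centring gave 1163 in DMSO and 1908 in Gilteritinib, and median-ratio scaling 1736 in DMSO. Leaving out 1 library gave 486 to 2879, 1159 to 2373, 1460 to 3589 and 1690 to 3785, the lowest without replicate 2 or 3 of that treatment. The cause of these changes was not tested.

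For named genes, 2552 values kept direction and side of the threshold, 46 lost the call, 5 gained it and 5 turned sign. Of the lost calls, 20 were against replicate 2 alone and 6 against replicate 3 alone, with fewer libraries, 6 were after median-ratio scaling and 5 after GC centring. The 5 gained were AKT1, AKT2 and FLT3 after median-ratio scaling, and FLT3 after GC centring and without Drug-combination replicate 1. Those that turned sign were ATP6V1B2 at -0.0094 and CNOT6 at -0.0041 after GC centring, AKT1 at 0.0149 and AKT2 at 0.0012 against replicate 3 alone, and HMGCS1 at 0.15 without Mitoxantrone replicate 1 (range -0.471 to 0.15 over the libraries left out). Of the medians of lists and gene types, 849 moved by less than the spread, 81 by more and 9 turned sign. Chaperone genes turned to -0.0561 after median-ratio scaling, decay factors to -0.0461 after GC centring and -0.0681 after median-ratio scaling, and protein-coding genes to -0.0375 after GC centring, -0.0672 after median-ratio scaling and -0.0393 after quantile normalization. Long intergenic RNAs turned to -0.0044 after quantile normalization, and sense overlapping RNAs to -0.00801 after GC centring and -0.0496 after quantile normalization. Each treatment has 1 library of replicate 1, and low FPKM values rest on few fragments.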
